A study of Homo sapiens with 7 samples.

Results

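The 3797 regions described here are HNF6 peaks of day 10 pancreatic progenitors that were strong in the HNF6 list and overlapped no region in any other list of the study. They were chosen in 3 steps from the 64919 distinct regions of the HNF6 list of day 10. Rows with the same coordinates were merged and the highest score kept, regions with a score at or above the 90th percentile of the list (392) were called strong, and strong regions that shared 1 bp or more with a region of GATA6 on day 10, NKX6.1 on day 13 or HNF6 on day 5 were removed. Of the 6498 strong regions, 3797 remained, and they are called unpartnered below. The other 2701 strong regions, called partnered, serve as the comparison. Score and overlap chose the regions, so both are given as descriptions only. Each set of regions comes from 1 library, so there is no replicate check and no p-value, and the 95% intervals (Wilson for shares, from the binomial order of the values for medians) cover counting error only.

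The chromatin came from CyT49, an established human embryonic stem cell line that was differentiated in vitro toward pancreas, and was immunoprecipitated and sequenced. The labels name no genetic change and no treatment beyond the differentiation. The groups were HNF6 on day 5 (gut tube endoderm), HNF6 and GATA6 on day 10, and NKX6.1 on day 13, with 1 library each. The extraction protocol calls the cells of day 10 NKX6.1-positive progenitors, and the stage is labelled PE on day 10 and PP on day 13. That protocol names an antibody to NKX6.1 for every sample, whereas the antibody label of each peak list matches the factor in its title, apart from the day 5 title, which gives HNF. All data stem from 1 cell line, and peak lists hold no expression values, so the labelled cell type was not checked against markers here. The 3 inputs were not analysed here. Read depth is unknown from the lists.

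HNF6, encoded by ONECUT1, is a transcription factor with a cut domain and a homeodomain that acts early in the development of pancreas and liver. GATA6 is a zinc finger factor that is needed for the human pancreas to form, and NKX6.1, another homeodomain factor, marks pancreatic progenitors and is later kept in beta cells. Transcription factors of one lineage often bind the same regulatory regions, many of which are enhancers that lie far from the genes they control.

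Absence of a partner here means absence from 3 lists of very unequal reach. The GATA6 list held 6285 regions, and its peak numbers ran to 19404, so 13119 numbered peaks were not analysed here. Every one of the 6285 shared bases with some HNF6 region of day 10, and how the list was made is not stated, so the list holds no GATA6 region that lies beside HNF6 regions without touching one. The NKX6.1 list held 14627 regions and came from a later day. Its regions were narrow, with a median width of 99 bp against 285 bp in the GATA6 list, so each had fewer bases to share. The day 5 list of HNF6 held 250 regions and removed few strong regions. Without the GATA6 list as a partner, 5683 strong regions counted as unpartnered, 1.5 times the number reported.

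Most HNF6 regions lacked a listed partner, and the share without one was lower in the upper part of the score range. Over the whole list 88.1% of the regions had no listed partner. The share was 93.0% (92.3 to 93.6) in the lowest score decile, 94.7% (94.1 to 95.2) in the fourth, where it was highest, 80.3% (79.3 to 81.3) in the ninth and 58.4% (57.2 to 59.6) among the strong regions. Within the strong regions it fell from 71.9% (69.4 to 74.2) at scores of 392 to 466 to 33.3% (30.8 to 35.9) at scores of 1128 to 4510. In the strongest percent of the list, at scores from 1543, 166 of 651 regions were unpartnered, or 25.5% (22.3 to 28.98).

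**Figure D1:**
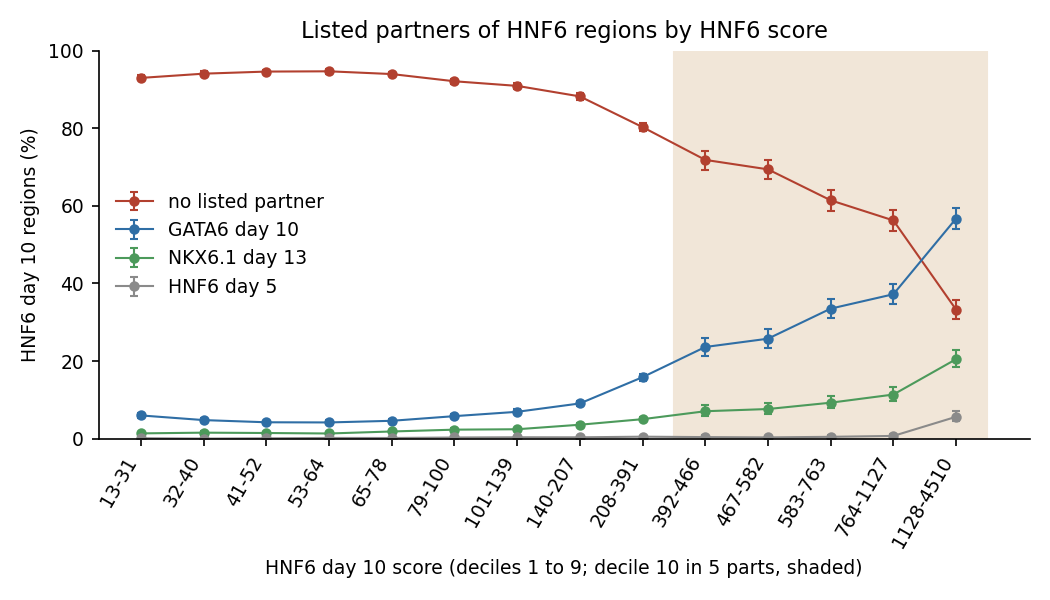
Share of HNF6 regions of day 10 without a listed partner, and with a GATA6, NKX6.1 or day 5 HNF6 region, by HNF6 score; points are shares of the regions in each score range and bars are Wilson 95% intervals. The share without a partner falls from 71.9% to 33.3% across the shaded strong regions, while the share with GATA6 goes from 23.6% to 56.7%.

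Among the very strongest HNF6 regions the unpartnered ones were a minority. The strongest of them ranked 26 in the list, and 18 of the 100 strongest, 55 of the 250 strongest and 291 of the 1000 strongest regions were unpartnered. Their median score was 594 (quartiles 468 and 836, highest 3292), against 806 (quartiles 556 and 1295, highest 4510) for the partnered regions. The partnered regions were for the most part HNF6 regions with GATA6 alone, of which there were 1886 with a median score of 764. NKX6.1 alone was found at 349 (median score 732), GATA6 and NKX6.1 at 369 (median score 1056), and HNF6 of day 5, with or without the others, at 97 (median score 1812). At the lower limit, 54 unpartnered regions had a score of exactly 392, such as chrX:11569927-11570312, chrX:16221317-16221607 and chrX:30522537-30522857, and 6 regions without a partner were left out at 391, such as chr10:77523758-77524149, chr15:98235159-98235482 and chr20:36168312-36168658. Coordinates are 1-based on hg19.

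The strongest unpartnered region was chr3:56097689-56098401, with a score of 3292 and a width of 713 bp. It was the only strong region over a long stretch, since the next one lay 339.6 kb away, yet 4 weaker HNF6 regions stood within 12500 bp of it. The nearest NKX6.1 region lay 8.71 kb and the nearest listed GATA6 region 50.5 kb away. The next, chr11:33716529-33717031, had a score of 3219 and a width of 503 bp, with 1 weaker HNF6 region at 1.51 kb and the nearest strong one at 400.2 kb. On chromosome 12, chr12:49738575-49739367 (score 3195) had 1 HNF6 region at 0.914 kb and lay 169.3 kb from listed GATA6. On chromosome 17, chr17:43065364-43066071 (score 3164) lay 159.1 kb from listed GATA6 and 167.1 kb from NKX6.1. The distance of these 4 regions to NKX6.1 ran from 8.71 to 167.1 kb.

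Other top regions lay close to a partner without touching it. The region chr10:77167866-77169207 (score 2828) was 1342 bp wide, the second widest of all unpartnered regions, with listed GATA6 at 2.35 kb and NKX6.1 at 2.69 kb. On chromosome 4, chr4:172083583-172084158 (score 2847) had a strong partnered HNF6 region at 8.76 kb, and the nearest listed GATA6 region stood at 8.83 kb. Others stood alone even among HNF6 regions. The nearest HNF6 region of any score was 74.0 kb from chr5:139645977-139646489 (score 2737) and 80.25 kb from chr10:66386409-66387033 (score 2687). The 15 strongest unpartnered regions lay on 13 chromosomes at scores from 2687, with a median width of 606 bp (461 to 1342). Within 12500 bp, 12 of the 15 had another HNF6 region, 2 had a strong one, 3 an NKX6.1 region and 2 a listed GATA6 region. Over all HNF6 regions, 55.7% had another within that distance and 10.0% a strong one. Of all HNF6 regions without a partner, 16.9% had an NKX6.1 region and 9.93% a listed GATA6 region within it. For comparison, the strongest partnered region, chr19:1725173-1726300, had a score of 4510 and a width of 1128 bp, and the next 4 partnered regions had scores of 3818 to 4237 and widths of 552 to 645 bp. All 5 of these overlapped listed GATA6 and 3 overlapped NKX6.1. Overlap with a partner list defines the partnered set. Among all 2701 partnered regions, listed GATA6 was overlapped by 2299 and NKX6.1 by 725.

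Unpartnered regions were narrower than partnered regions, overall and within score ranges. Their median width was 412 bp (95% interval 409 to 416, quartiles 362 and 491) against 470 bp (464 to 477, quartiles 396 and 591), and 246 bp for weaker regions without a partner. Widths of at least 500 bp were found in 878 unpartnered regions, or 23.1% (21.8 to 24.5), and in 42.5% of the partnered ones. Width went with score in both sets, with a Spearman's rho of 0.40 across the 3797 unpartnered and 0.41 across the 2701 partnered regions, which share 1 library. Within score ranges the difference was smaller and had the same direction in each of the 5. At scores of 392 to 466 the medians were 375 bp (369 to 382) and 399 bp (380 to 408), where the intervals overlap. At scores of 583 to 763 they were 412 bp (406 to 420) and 447 bp (435 to 457), and at scores of 1128 to 4510 they were 500.5 bp (488 to 514) and 540 bp (528 to 555). In this last range the scores themselves differed, with medians of 1420 (1382 to 1469) and 1635 (1584 to 1676).

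**Figure D2:**
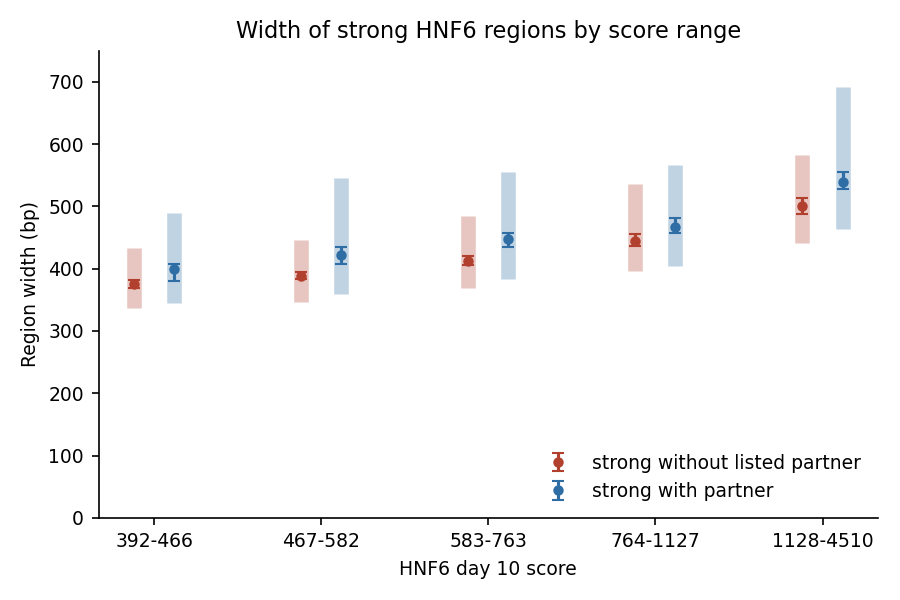
Width of unpartnered and partnered strong HNF6 regions in 5 score ranges; points are medians with 95% intervals and pale bars run from the first to the third quartile. Medians of unpartnered regions are lower in each score range, from 375 against 399 bp at the lowest scores to 500.5 against 540 bp at the highest.

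Overlap favours wide regions by construction, because a wide region has more bases that a partner can share. With partners called from midpoints within 200 bp in place of shared bases, an alternative added after the data were seen, 4000 strong regions were unpartnered. Their median width was then 417 bp (414 to 421) against 461.5 bp (457 to 467) for the others. The narrowest unpartnered region, chr7:151062314-151062570, was 257 bp wide (score 398), and the widest, chr2:209155974-209157477, was 1504 bp wide (score 969) and was listed in 3 rows.

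Unpartnered regions were less often split into several rows, which the list gives with the same coordinates and a score each. Several rows were found for 176 unpartnered regions, or 4.64% (4.01 to 5.35), against 2.11% of all HNF6 regions and 11.3% (10.2 to 12.6) of the partnered ones. The share stayed between 3.48% and 5.60% over the 5 score ranges, and between 7.36% and 13.6% for partnered regions. The 176 regions had a median width of 760 bp, and their weakest row had a median of 15.3% of the score of the strongest (quartiles 7.35 and 39.4%). In partnered regions the weakest row had a median of 10.65% of the strongest. What the score measures is not stated, so these percentages compare listed scores and not binding.

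The difference in split regions was smaller at matched width. Below 463 bp no strong region of either set had several rows. Among strong regions of 567 bp or wider, 33.2% (29.3 to 37.4) of the unpartnered and 38.5% (35.2 to 41.97) of the partnered were split, and these intervals overlap. With midpoints within 200 bp as the partner rule, the shares over all widths were 6.70% (5.97 to 7.52) and 8.57% (7.53 to 9.73), so the ratio of the sets depended on how overlap was called. Conversely, the share of strong regions that were unpartnered went from 71.6% (69.1 to 74.0) at widths of 255 to 360 bp to 39.5% (36.9 to 42.2) at 567 bp or more.

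**Figure D3:**
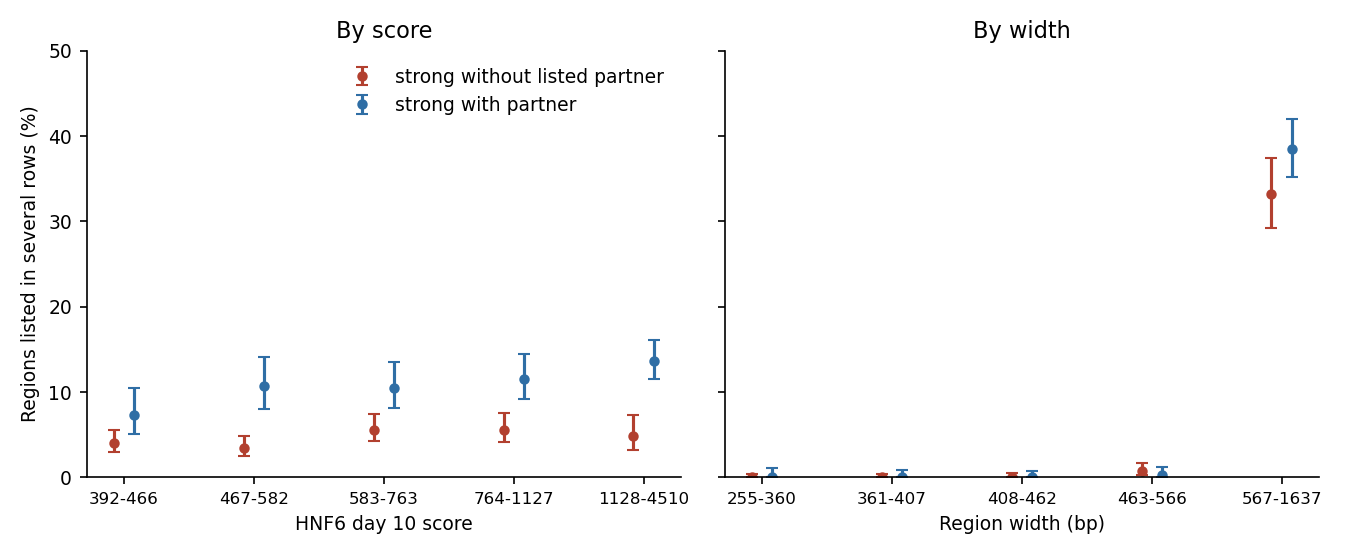
Share of strong HNF6 regions listed in several rows, for unpartnered and partnered regions, by score (left) and by width (right); points are shares and bars are Wilson 95% intervals. By score the partnered regions lie higher in each range, whereas by width both sets are at or near 0 up to 566 bp and at 33.2% and 38.5% in the widest class.

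Unpartnered regions stood among other HNF6 regions about as often as HNF6 regions in general, and less often than partnered ones. Another HNF6 region of any score lay within 12500 bp, edge to edge, of 2163 unpartnered regions, or 57.0% (55.4 to 58.5). The share was 55.7% over the whole list and 64.05% (62.2 to 65.8) for partnered regions. With each of the 5 score ranges given equal weight it was 57.6% against 63.5%, and with 5 width ranges weighted equally it was 57.8% against 62.5%, although at widths of 408 to 462 bp the unpartnered share was the higher, at 61.5% (58.1 to 64.8) against 60.04% (55.7 to 64.2). The median distance to the nearest HNF6 region was 9220 bp (8632 to 10040) for unpartnered and 7034 bp (6476 to 7636) for partnered regions. Dense surroundings, with 3 or more HNF6 regions within 12500 bp, were found for 10.85% (9.90 to 11.9) of the unpartnered and 15.03% (13.7 to 16.4) of the partnered regions, against 9.97% over the list. The 349 strong regions with NKX6.1 alone had a neighbour in 61.6% (56.4 to 66.6), an interval that holds the shares of both sets. With GATA6 alone the share was 63.6% (61.4 to 65.8), and with GATA6 and NKX6.1 it was 69.9% (65.05 to 74.4). With HNF6 of day 5 it was 58.8% (48.8 to 68.0).

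Strong regions themselves were far apart in both sets. The nearest strong HNF6 region lay a median of 115900 bp (110300 to 124700) from an unpartnered region and 108900 bp (100500 to 117600) from a partnered one. A strong region within 12500 bp was found for 10.6% (9.67 to 11.6) of the unpartnered and 11.7% of the partnered regions, beside 10.0% over the list. The nearest HNF6 neighbour within 12500 bp was a weaker region without a partner in 80.4% (78.7 to 82.0) of the unpartnered cases and in 80.9% (79.0 to 82.7) of the partnered ones. It had a partner of its own in 13.3% (11.95 to 14.8) and 14.2% (12.7 to 15.9).

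Beyond their own bounds, unpartnered regions and weaker HNF6 regions without a partner had median distances to listed GATA6 and to NKX6.1 whose intervals overlapped; the intervals for HNF6 of day 5 were apart. The rule removes touching regions from both sets. A listed GATA6 region lay within 12500 bp of 10.2% (9.25 to 11.2), against 9.93% of all HNF6 regions without a partner, and an NKX6.1 region within 12500 bp of 16.5% (15.3 to 17.7), against 16.9%. Median distances were 130900 bp (123100 to 138000) to listed GATA6 and 57220 bp (54440 to 60520) to NKX6.1. For weaker regions without a partner they were 130300 bp (128600 to 132300) and 54880 bp (54110 to 55600). The nearest of the 250 day 5 regions lay a median of 4971000 bp (4743000 to 5225000) from unpartnered and 5521000 bp (5437000 to 5605000) from weaker regions. For partnered regions, 97 of which overlap a day 5 region, the median was 4942000 bp (4593000 to 5315000). That interval overlaps the interval of the unpartnered regions. Because no listed GATA6 region stands apart from HNF6, a distance to listed GATA6 is a distance to another HNF6 region with GATA6. Near misses, which for GATA6 could be listed only where the GATA6 region touched another HNF6 region, were few: 35 unpartnered regions (0.922%) lay within 200 bp of a region of any partner list and 142 (3.74%) within 1 kb, against 0.913% and 3.95% of the weaker ones. The closest stood 10 bp from an NKX6.1 region (chr6:14317423-14317733, score 457) and 42 bp from a listed GATA6 region (chr1:178418576-178418921, score 392).

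**Figure D4:**
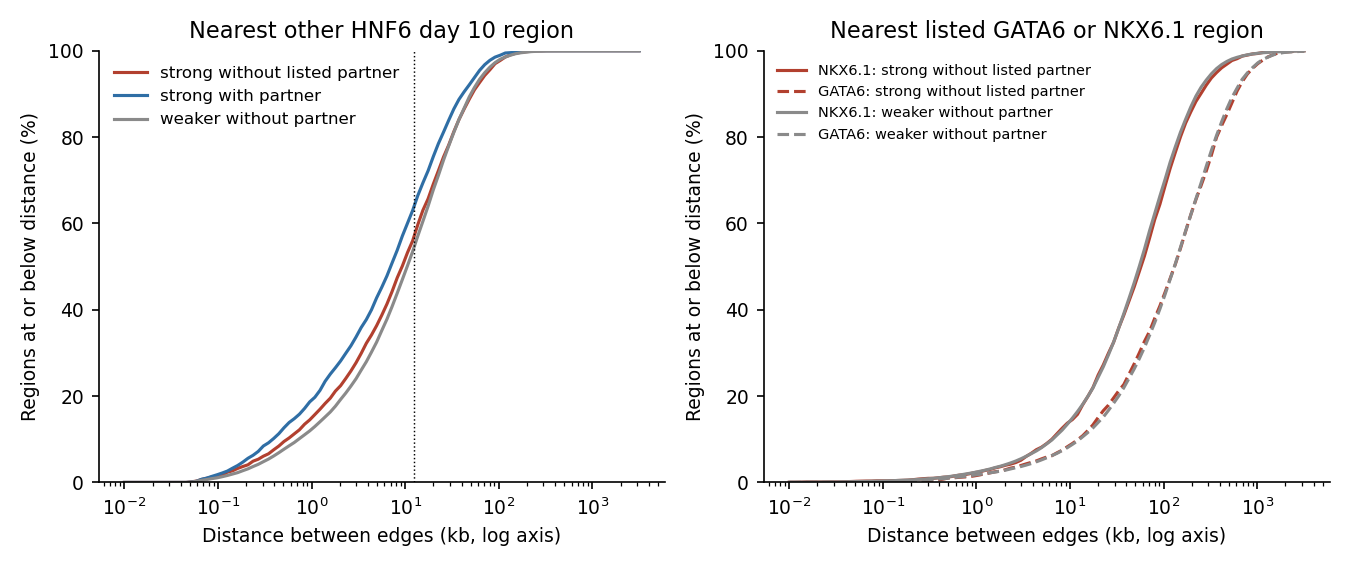
Cumulative share of regions by distance to the nearest other HNF6 region of day 10 (left, dotted line at 12500 bp) and to the nearest listed GATA6 or NKX6.1 region (right); the distance between edges is on a log axis. Partnered regions reach 64.05% at 12500 bp against 57.0% for unpartnered ones, and the right-hand curves of unpartnered and weaker regions nearly coincide.

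Unpartnered regions were spread over all autosomes and chromosome X. For most of these chromosomes, their shares did not differ from those of partnered regions beyond counting error. A few strong regions of both sets lay outside these chromosomes and are counted in the totals. Over 22 autosomes and chromosome X, the unpartnered share of strong regions ran from 52.7% (47.3 to 58.1) on chromosome 7 to 67.65% (58.1 to 75.9) on chromosome 19, and the intervals of 20 of the 23 chromosomes held the overall 58.4%. The exceptions were chromosome 1, at 65.0% (60.9 to 68.9), chromosome X, at 67.5% (58.5 to 75.4), and chromosome 7. The intervals are not adjusted for the number of chromosomes, and those of chromosomes 7 and X missed the share over all strong regions narrowly. Chromosome 1 held 9.24% (8.36 to 10.2) of the unpartnered and 6.997% (6.095 to 8.02) of the partnered regions, which was the only pair of intervals apart. Relative to all HNF6 regions of a chromosome, unpartnered regions made up 5.85% over the list and 4.79% (4.14 to 5.53) on chromosome 7. They made up 9.73% (7.76 to 12.1) on chromosome 19, 8.14% (6.01 to 10.9) on chromosome 22 and 8.06% (6.77 to 9.58) on chromosome 17. Chromosomes 17, 19 and 22 held 3.08%, 1.82% and 1.03% of the unpartnered regions. They held 2.74%, 1.22% and 0.703% of the partnered regions, and 2.24%, 1.09% and 0.738% of the whole list.

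**Figure D5:**
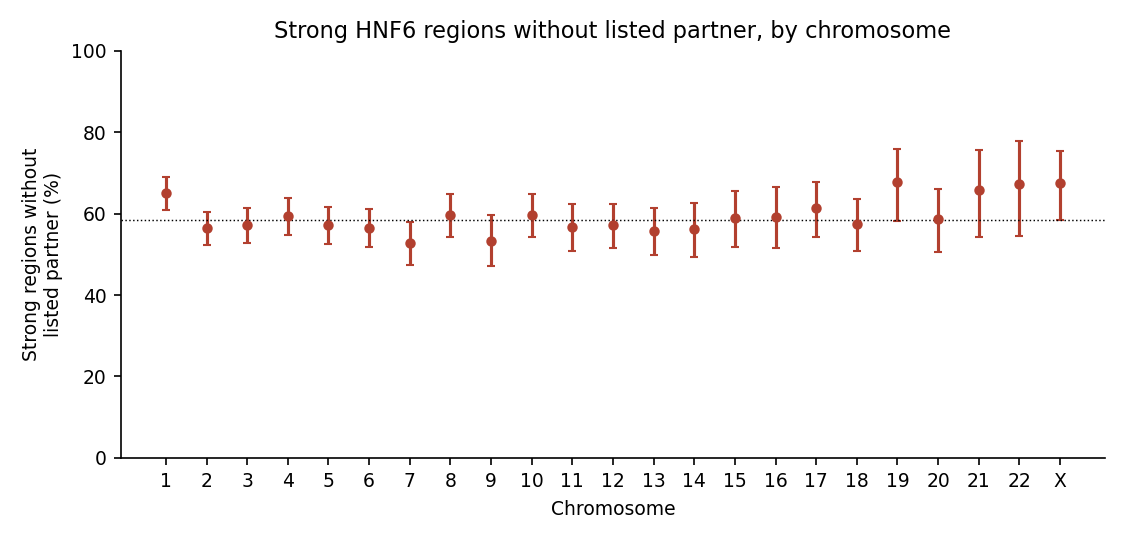
Share of strong HNF6 regions without a listed partner on each autosome and chromosome X; points are shares, bars are Wilson 95% intervals and the dotted line marks 58.4%, the share over all strong regions. Chromosomes 1 and X lie above the line and chromosome 7 below it with intervals that do not reach it. The intervals are not adjusted for the number of chromosomes.

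Most unpartnered regions had no other unpartnered region within 12500 bp, and a few formed tight runs. When unpartnered regions were chained wherever the next lay within 12500 bp, 6.30% of them fell into 111 runs of 2 or more, and 5.85% of the partnered regions did so in 77 runs. Of the 111 runs, 99 had 2 regions, 9 had 3, 1 had 4 and 2 had 5. The longest run of partnered regions had 3.

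The runs of 5 lay on chromosomes 15 and 18. The run at chr15:53077566-53098035 spanned 20470 bp and held 12 HNF6 regions in all, of which 5 were unpartnered (scores of 410 to 1458) and 1 was strong and partnered. It held 2 listed GATA6 regions and 0 NKX6.1 regions. Its members included the unpartnered regions with the most HNF6 neighbours of all, chr15:53083074-53083811 (score 449) and chr15:53089829-53090156 (score 410), with 12 each within 12500 bp. The strongest member, chr15:53090720-53091240 (score 1458), was 521 bp wide, and the widest, chr15:53096740-53098035 (score 1258), measured 1296 bp and was listed in 3 rows.

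The run at chr18:55095175-55112220 spanned 17046 bp, held 9 HNF6 regions, 5 of them unpartnered, and touched 0 regions of the other 3 lists. Its members scored 398, 987, 1366, 1047 and 1399 from the first to the last position and were 424 to 628 bp wide. The run of 4, at chr8:77577468-77596305, held 5 HNF6 regions and likewise 0 regions of the other lists. Of the runs of 3, the one with the highest score, at chr19:1750561-1770027 (scores of 739, 1792 and 736), held 8 HNF6 regions, 1 listed GATA6 region and 2 NKX6.1 regions.

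The 3 genes of the ONECUT family, ONECUT1 (which encodes HNF6), ONECUT2 and ONECUT3, are on chromosomes 15, 18 and 19 in RefSeq (GRCh38.p14). Both runs of 5, and the run of 3 with the highest score, lay on these chromosomes. The run of 4, on chromosome 8, and the run of 3 with the next highest score, on chromosome 16, did not. The places of the other runs of 3 are not given here. Of all unpartnered regions, chromosomes 15, 18 and 19 held 3.06%, 3.40% and 1.82%. The shared chromosomes were noticed after the runs were seen. Gene positions on hg19 were not used here, so whether the runs lie at these genes was not tested.

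At a scale of 1 Mb the same part of chromosome 15 stood out. The window from 53000001 to 54000000 held 84 HNF6 regions, the most of the 2851 windows with any, where the median was 22. It held 14 unpartnered regions, the most of any window, and 8 partnered ones, a number that no window exceeded. Thus 14 of its 22 strong regions were unpartnered, beside 58.4% over all strong regions. It also held 12 listed GATA6 and 20 NKX6.1 regions. The 14 regions scored 410 to 2739 (median 1024), were 328 to 1296 bp wide, and 8 of them had 3 or more HNF6 neighbours within 12500 bp. The highest score belonged to chr15:53330054-53330547. The next windows held 8 unpartnered regions and 1 partnered region each, on chromosome 17 from 46000001 to 47000000 and on chromosome 19 from 42000001 to 43000000. The window on chromosome 19 held 26 HNF6 regions and 0 listed GATA6 regions.

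Counted over all windows, many held both kinds of strong region. Of 1993 windows with an unpartnered region, 1220 also held a partnered one and 773 did not. In the 1220 windows lay 64.2% of the unpartnered and 77.8% of the partnered regions. How often the 2 kinds would share a window by their numbers alone was not tested. In 66 windows there were 5 or more unpartnered regions, and 14 of these windows held 0 partnered regions. Partnered regions, of which there were fewer (2701 against 3797), numbered 5 or more in 24 windows. The region most remote from any other strong region on the autosomes and chromosome X was chrX:87188221-87188577 (score 907), at 4129 kb.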

How the data were processed

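The authors deposited 1 peak list per library for 4 of 7 samples, without a header, whose columns hold the coordinates, a name and a score for each peak. What the score measures is not stated. The deposited scores served to order regions inside their own list and, for regions with several rows, to set the weakest row against the strongest. Bowtie2 2.3.4.1, MACS2 2.1.1.20160309 and build hg19 are named per the submitters' processing notes, without roles or settings. A score filter or the use of inputs by the authors would set which weak regions are listed.

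Groups were taken from sample titles. Overlap, distances (edge to edge), runs and windows were computed with Python 3.11.15, numpy 2.4.6, pandas 2.3.3, scipy 1.17.1 and statsmodels 0.14.6. The code was tested on simulated data, and overlap counts equalled those of bedtools 2.31.1. Of the unpartnered regions, 3 on unplaced contigs were left out of runs and windows. The named regions are the 15 strongest unpartnered, the 5 strongest partnered, those at the score limit and the 3 longest runs; other named regions (extremes of width, distance or neighbours, and runs and windows beyond these) were chosen after their values were seen. Members, lists and rules were chosen with earlier results of these data known.

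Positions relative to genes, gene lists and motifs had been planned but were left out, since no hg19 annotation or sequence was used here.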

Additional observations from a re-analysis of the deposited data

How the results depend on the processing

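Of 51 values recomputed under alternatives, 31 stayed within the interval of the reported value (for the number of regions, within 1.5 times). The limit for the number is wide, since 5683 unpartnered regions without the GATA6 list counted as within it. So did 4747, found when only partner regions above the median score of their list were used. With the 95th percentile as the limit there were 1562 unpartnered regions, and with the 80th 9008, by construction. At the 95th percentile the median width was 456 bp for unpartnered and 503 bp for partnered regions, a neighbour within 12500 bp was found for 59.15% of the unpartnered, chromosomes 7 and 19 held 3.585% and 2.37% of them, and 12.65% of the partnered regions had several rows. Midpoints within 200 bp gave widths of 417 and 461.5 bp and several rows in 6.70% and 8.57%. Equal weight for score ranges gave widths of 424.3 and 454.9 bp, and equal weight for width ranges gave several rows in 6.79% and 7.77%. The share with a neighbour was 36.5% and 42.95% within 5 kb, and 89.2% and 92.6% within 50 kb. Where values of both sets are given above, the unpartnered value comes first and was the lower. At the 95th percentile the partnered share was 6.087% on chromosome 7, above the unpartnered one. On chromosome 19 it was 1.478%, below the unpartnered one. Midpoints for width, neighbours and rows, weights by width and all those for several rows were chosen after seeing the data. Position relative to genes, gene lists and motifs were not run. No paired analysis was possible because each group had 1 library. Depth is unknown from the lists, so absence of a partner is absence from a list.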
